A study of Mus musculus with 2 samples.

Results

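Binding sites of the co-activator p300 were examined around 9 genes of fibroblast growth factor (FGF) signalling, namely the receptors Fgfr1, Fgfr2 and Fgfr3, the Sprouty inhibitors Spry1, Spry2 and Spry4, and the ETS factors Etv1, Etv4 and Etv5. A p300 peak was given to a gene when its midpoint lay in the gene body or within 500 kb of the transcription start site, taken from the transcript whose coding sequence is longest. This placed 39 of the 6629 deposited peaks (0.588%) at the 9 genes, which lie on 9 different chromosomes and are 9 of 22367 annotated protein-coding genes. The peaks came from a single chromatin immunoprecipitation, performed on the dorsal cerebral wall of Swiss Webster embryos at embryonic day 14.5 after the hem, hippocampus and choroid plexus had been trimmed away. For this library, 0.15 g of tissue was fixed for 15 minutes in 1% formaldehyde, and 30 µg of chromatin met 4 µg of the C-20 antibody. Input chromatin from the same tissue was the control for peak calling and was not analysed here. The labels do not give how many embryos the tissue was pooled from. With 1 library and no measurement of transcripts, no value below has a replicate, and the tissue could not be checked against marker genes.

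FGF ligands bind receptor tyrosine kinases at the cell surface, and the activated receptors signal through adaptors to Ras and the Erk kinases. The pathway switches on transcription of its own inhibitors, the Sprouty proteins, and of Etv1, Etv4 and Etv5, which form the PEA3 subfamily of ETS transcription factors and carry the signal to target genes. In the embryonic cortex FGF signalling is known for patterning the neocortex from its rostral end and for maintaining progenitors. The protein p300 is a histone acetyltransferase that gathers at active enhancers, so a peak marks a candidate enhancer and not a measured one.

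The sequence at the middle of 9 peaks is shown first, so that the letters behind the later base composition and motif values can be seen. They are the peak nearest the start site of each of the 8 genes that had one, and for Etv1 also its widest. Each run covers 200 bases of the mm9 assembly, read 5′ to 3′. Capitals mark any match to 6 consensus motifs, which are spelled out with their shares further on.
Fgfr1, upstream, chr8:26624766-26624965, plus strand: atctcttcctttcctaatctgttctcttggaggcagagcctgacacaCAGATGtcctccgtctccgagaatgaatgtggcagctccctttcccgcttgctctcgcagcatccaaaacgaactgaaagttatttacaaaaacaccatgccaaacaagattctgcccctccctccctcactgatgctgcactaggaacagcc
Fgfr2 intron 6, chr7:137359228-137359427, plus strand: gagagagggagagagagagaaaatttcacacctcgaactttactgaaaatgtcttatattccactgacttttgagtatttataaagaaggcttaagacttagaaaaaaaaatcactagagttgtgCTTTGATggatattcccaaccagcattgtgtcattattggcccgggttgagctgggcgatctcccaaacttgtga
Fgfr3, upstream, chr5:34038013-34038212, plus strand: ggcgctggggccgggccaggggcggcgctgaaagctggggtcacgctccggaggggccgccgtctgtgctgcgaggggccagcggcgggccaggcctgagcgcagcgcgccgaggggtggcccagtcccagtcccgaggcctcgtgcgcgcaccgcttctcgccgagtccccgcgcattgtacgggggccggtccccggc
Spry1, upstream, chr3:37485118-37485317, plus strand: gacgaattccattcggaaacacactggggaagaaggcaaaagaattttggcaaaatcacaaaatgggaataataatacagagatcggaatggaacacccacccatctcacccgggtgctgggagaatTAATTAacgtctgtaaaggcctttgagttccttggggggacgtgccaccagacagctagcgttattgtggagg
Spry2, downstream, chr14:106198606-106198805, plus strand: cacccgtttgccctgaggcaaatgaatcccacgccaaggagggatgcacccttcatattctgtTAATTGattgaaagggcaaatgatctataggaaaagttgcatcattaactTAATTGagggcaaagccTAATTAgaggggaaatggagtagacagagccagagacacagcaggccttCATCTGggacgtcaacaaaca
Etv1 intron 4, chr12:39515429-39515628, plus strand: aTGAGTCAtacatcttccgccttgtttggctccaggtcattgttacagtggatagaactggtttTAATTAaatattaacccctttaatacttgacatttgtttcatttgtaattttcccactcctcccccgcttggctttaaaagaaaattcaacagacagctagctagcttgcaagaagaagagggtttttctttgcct
Etv1, widest of the downstream group, chr12:39753533-39753732, plus strand: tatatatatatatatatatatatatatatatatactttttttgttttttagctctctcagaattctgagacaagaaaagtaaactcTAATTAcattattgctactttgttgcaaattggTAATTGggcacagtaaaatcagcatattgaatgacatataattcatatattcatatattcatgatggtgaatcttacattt
Etv4, downstream, chr11:101557620-101557819, plus strand: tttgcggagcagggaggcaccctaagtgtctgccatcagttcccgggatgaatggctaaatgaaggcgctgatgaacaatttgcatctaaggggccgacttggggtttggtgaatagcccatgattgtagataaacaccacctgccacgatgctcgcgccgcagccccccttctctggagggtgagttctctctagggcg
Etv5 intron 5, chr16:22430453-22430652, plus strand: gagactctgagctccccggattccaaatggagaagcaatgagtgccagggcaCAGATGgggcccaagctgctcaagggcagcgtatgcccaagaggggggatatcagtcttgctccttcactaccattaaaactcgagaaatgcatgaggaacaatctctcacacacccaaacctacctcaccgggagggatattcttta
The GC content of the stretches ran from 23% in the widest Etv1 peak to 79% in the Fgfr3 peak. The Fgfr2 stretch (39.5%) and the Etv1 intron 4 stretch (38.5%) were close to each other. The Fgfr3 and Etv4 stretches held no capitals. The Etv1 intron 4 stretch began with an AP-1 match, the Fgfr2 stretch held a Tcf/Lef match, the Spry1 stretch a homeodomain match, and the Fgfr1 and Etv5 stretches an E-box each. The Spry2 stretch held 3 homeodomain matches and an E-box.

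The number of p300 peaks per gene ran from 11 at Etv1 to 0 at Spry4. Fgfr2 and Etv4 had 7 peaks each, Spry1 had 4, Fgfr1 and Etv5 had 3 each, and Fgfr3 and Spry2 had 2 each. Peaks spread evenly over the 2.56 Gb of assembled sequence would have put 2.59 in each 1 Mb window. The median over the 9 genes was 3 peaks, against a median of 1 over all protein-coding genes, of which 30.0% had no peak in their window. Together the 9 windows held 39 peaks where 23.3 would have fallen under an even spread, which is 1.67 times as many (exact Poisson 95% interval of the count 27.7 to 53.3). Since peaks near one another may arise together, this and the later intervals cover counting error only.

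**Figure D1:**
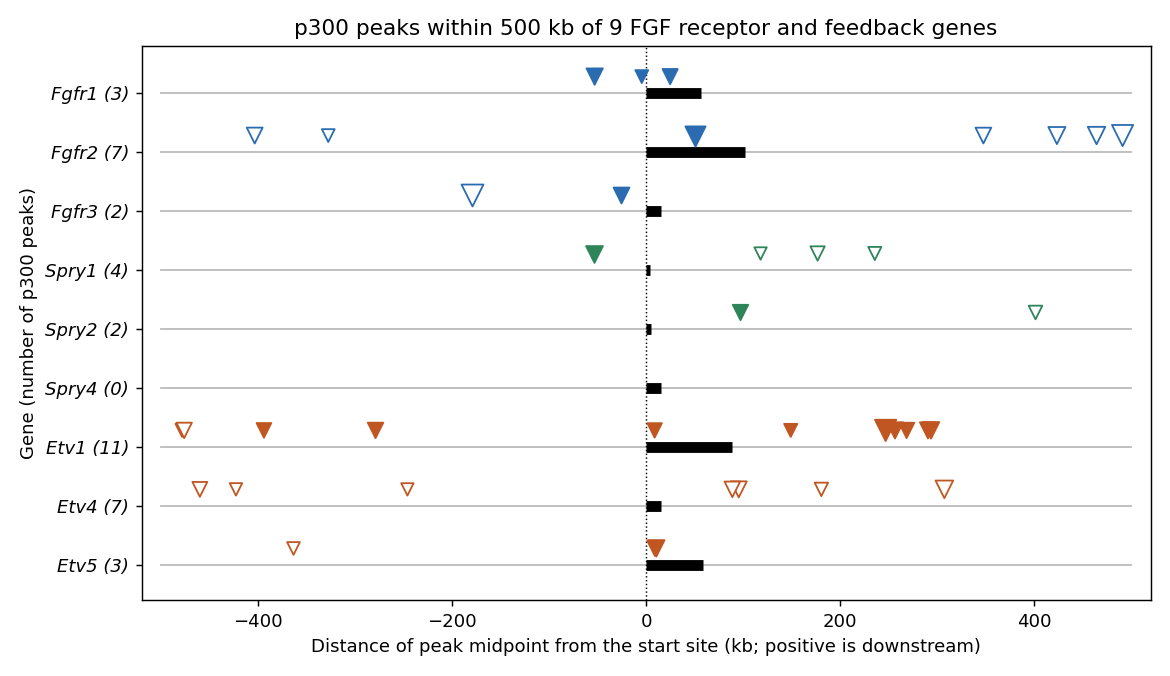
Position of each p300 peak (triangles at the midpoints) relative to the start site of the 9 genes, in kb along the direction of transcription. Black bars are the gene bodies, filled triangles are peaks whose nearest protein-coding start site is that of the gene, open triangles lie nearer another gene, and larger triangles are wider peaks. Of the 11 Etv1 triangles, 9 are filled, none of the 7 at Etv4 is, and the Spry4 row is empty.

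Only Etv1 passed the test for an excess of peaks. Under a one-sided exact binomial test of each window's count against its share of assembled bases, with Benjamini-Hochberg adjustment over all 22367 protein-coding genes, 1 of the 9 genes had an adjusted p below 0.05, beside 4.09% of all protein-coding genes. Because genes that neighbour each other share peaks, and because peaks cluster in the genome, this test asks only whether a window departs from an even spread. By role, the Etv genes held 21 peaks in all (2.70 times the even spread), the receptors held 12 (1.54 times) and the Sprouty genes 6 (0.772 times). These totals mix unlike genes. Of the 21, 11 were at Etv1, while Etv5 stood at 1.16 times, and the Sprouty genes ran from 0 at Spry4 to 1.54 times at Spry1.

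**Figure D2:**
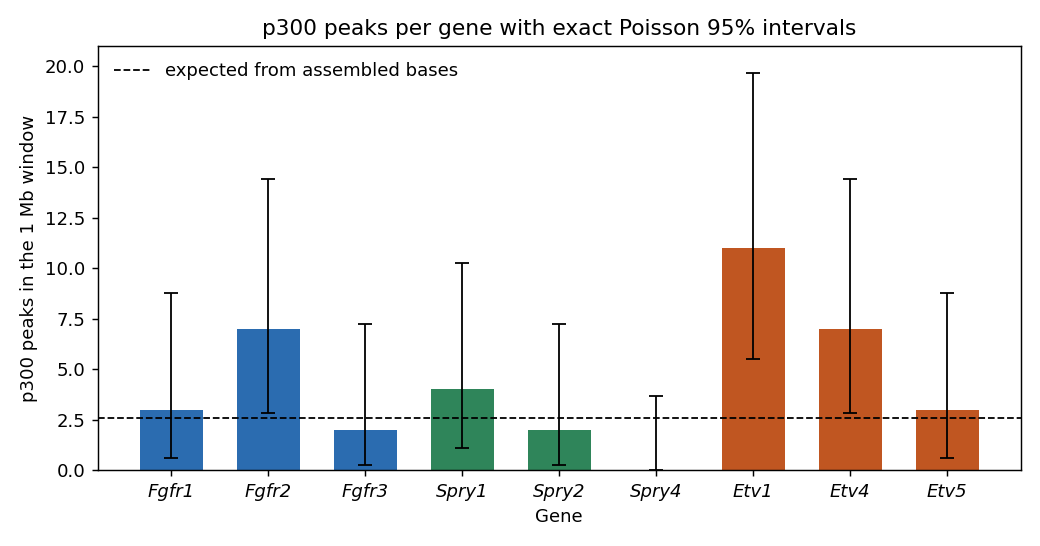
Number of p300 peaks in the 1 Mb window of each gene (bars from 0; receptors blue, Sprouty genes green, Etv genes orange), with exact Poisson 95% intervals that cover counting error only. The dashed line is the 2.59 peaks of an even spread, and the interval of Etv1 begins at 5.49, above it.

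Among the receptors, Fgfr1, a receptor broadly used in the developing telencephalon, had 3 peaks, all close to the gene. On chromosome 8, with its start site at 26629264 on the plus strand, the peaks lay 53.0 kb upstream, 4.40 kb upstream and 24.8 kb downstream in intron 2. For all 3 of them Fgfr1 was the nearest protein-coding start site, although 16 other protein-coding genes begin in the window. The window count was 1.16 times the even spread and did not pass the test (exact binomial test, adjusted p = 1). Counting only 100 kb on either side, the same 3 peaks were 5.79 times the 0.518 of an even spread, which again did not pass (exact binomial test, adjusted p = 0.450). The peak 4.40 kb upstream lay 0.740 kb from the start of another annotated Fgfr1 transcript, at 26624126, and touched an annotated exon. It was thus upstream of the start site used here but inside the annotated extent of Fgfr1. Under this annotation it does not stand clear of promoters.

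Fgfr2, a receptor with isoforms for different sets of ligands, had 7 peaks, and most of them were far from the gene. It is transcribed from the minus strand of chromosome 7 with its start site at 137409705. A single peak lay in the gene, in intron 6, 50.4 kb from the start site, and at 1750 bp it was wider than 92.1% of all peaks. The other 6 lay between 328 and 491 kb away. Upstream, the peaks at 328 and 403 kb were inside Tacc2, and downstream the 4 peaks at 348, 424, 464 and 491 kb were nearer to the start site of Wdr11. The window count was 2.70 times the even spread, with an unadjusted p of 0.0169 that did not hold after adjustment (exact binomial test, adjusted p = 0.197), and 8.62% of protein-coding genes had 7 or more peaks. With the most 5′ annotated start site instead, Fgfr2 had 9 peaks against 2.86 (3.15 times) and did not pass (exact binomial test, adjusted p = 0.0677).

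The annotation also holds a readthrough transcript that stretches Fgfr2 over 3.01 Mb, from 137305965 to 140315033. If that whole extent is taken as the gene body, the window becomes 3.36 Mb with 24 peaks against 8.69 under an even spread, and the gene passes (exact binomial test, adjusted p = 0.00142). The 102 kb extent of the transcript with the longest coding region was used for all other values. This was settled after the counts under both had been seen.

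Fgfr3, whose transcripts are known to be graded along the cortical progenitor zone, had 2 peaks. Its start site lies at 34064373 on the plus strand of chromosome 5. The nearer peak was 26.3 kb upstream and had Fgfr3 as its nearest protein-coding start site. The GC content of the whole peak, 69.9%, was higher than that of 99.95% of all peaks. The farther peak, 179 kb upstream, was nearer to Fam53a, and at 2062 bp it was the widest of the 39. The count did not exceed the even spread (0.772 times; exact binomial test, adjusted p = 1).

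The Sprouty genes encode membrane-associated proteins that dampen receptor signalling to Erk, and none of their windows passed the test. Spry1, on chromosome 3 with a start site at 37539002 on the plus strand, had 4 peaks, at 53.8 kb upstream and at 118, 177 and 236 kb downstream. The upstream peak was nearest to Spry1, and the 3 downstream peaks were nearer to Gm5148. At 1.54 times the even spread the window did not pass (exact binomial test, adjusted p = 1), and 24.9% of protein-coding genes had 4 or more peaks.

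Spry2, on the minus strand of chromosome 14 with its start site at 106296036, had 2 peaks, both downstream. The peak at 97.3 kb was nearest to Spry2, while that at 401 kb lay 3.32 kb from the start site of 4930449E01Rik. Neither lay in the gene, which spans 4.87 kb. Spry4, on chromosome 18, had no peak within 500 kb, and the closest one in the list was 721 kb away. An exact Poisson 95% interval on a count of 0 reaches 3.69, so the even spread of 2.59 peaks lies inside it and a deficit at Spry4 was not detectable with a peak list of this size. Of all protein-coding genes, 30.0% had no peak either.

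The Etv genes held 21 of the 39 peaks, and their arrangement differed from gene to gene. Etv1, an ETS factor also known as a marker of layer 5 projection neurons, had 11 peaks, the most of the 9 genes (exact Poisson 95% interval 5.49 to 19.7). That was 4.25 times the even spread (exact binomial test, p = 8.37e-05, adjusted p = 0.00505), and 1.67% of protein-coding genes had as many or more. The start site lies at 39506669 on the plus strand of chromosome 12, and 9 of the 11 peaks had Etv1 as their nearest protein-coding start site.

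The window of Etv1 was the emptiest of genes among the 9. No other protein-coding gene begins in it, where the other windows held between 3 and 34. The next protein-coding start site upstream is that of Dgkb, a diacylglycerol kinase, 899 kb away, and the next downstream is that of Arl4a, 1257 kb away. Upstream of Etv1, 4 peaks lay inside Dgkb at 279, 394, 476 and 478 kb, and the outer 2 of these were nearer to the start site of Dgkb. Whether any of these peaks acts on Etv1 or on Dgkb was not measured.

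In the gene itself a single peak lay in intron 4, 8.86 kb past the start site. Downstream a peak at 149 kb was followed by a group of 5 between 247 and 294 kb, at chr12:39752660-39800982, whose midpoints spanned 46.8 kb and which overlapped no annotated gene. The first of the group was 1948 bp wide, wider than 95.2% of all peaks. Groups as dense as this one were uncommon but not rare, since 197 of the 6629 peaks (2.97%) sat in a stretch of that length holding at least 5. The last peak of the group was separated from the start site of Arl4a by 963 kb.

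Whether Etv1 passed depended on the distance counted. Within 100 kb of the start site or in the gene it had 1 peak and within 250 kb 3 peaks (exact binomial test, adjusted p = 1 and 0.970), since of the group of 5 only the first lies inside the latter distance. Within 1 Mb it had 16 against 5.18 under an even spread (exact binomial test, adjusted p = 0.00312). When peaks narrower than the median of all peaks were left out, it had 6 against 1.30 (4.62 times), and the window no longer passed (exact binomial test, adjusted p = 0.0671). Fgfr2 had the same count, even spread and adjusted p in that setting, so Etv1 did not stand apart from it there.

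**Figure D3:**
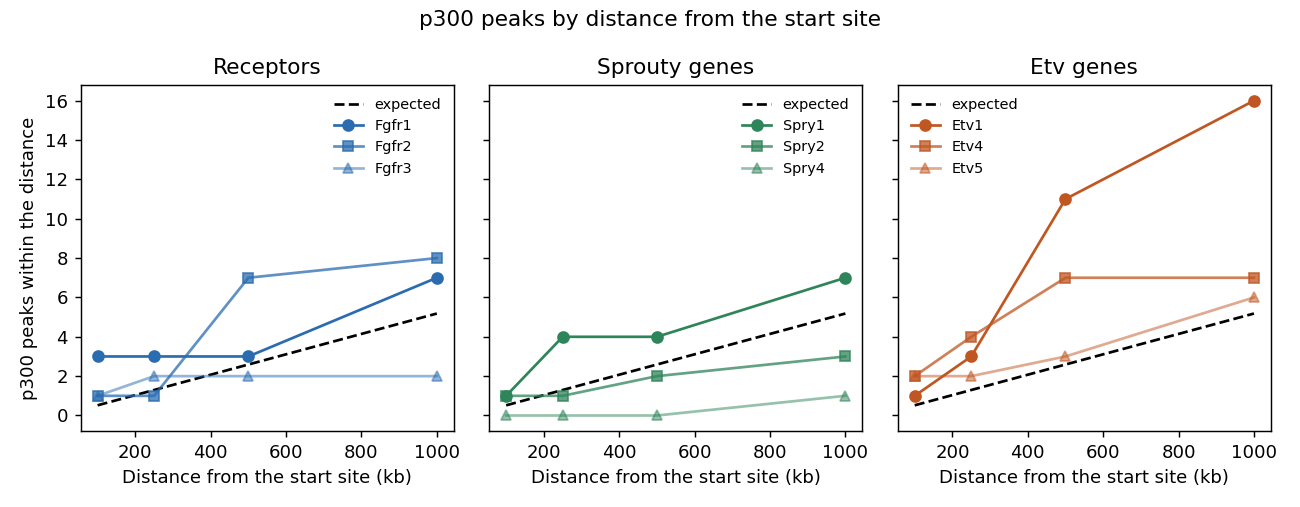
Number of p300 peaks (vertical axis) in the gene body or within 100, 250 and 500 kb or 1 Mb of the start site (horizontal axis) of each receptor, Sprouty and Etv gene, with the even spread as a dashed line. Etv1 goes from 3 peaks within 250 kb to 11 within 500 kb and 16 within 1 Mb, Fgfr2 goes from 1 to 7 between 250 and 500 kb, and Spry4 stays below the line throughout.

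Etv4, induced by FGF signalling in many embryonic tissues, had 7 peaks, and none of them was nearest to it. Its start site lies at 101646685 on the minus strand of chromosome 11, in a window where 34 other protein-coding genes begin. Downstream, peaks at 89.0 and 95.6 kb were nearer to Arl4d, that at 181 kb to Tmem106a and that at 308 kb to Rnd2. Upstream, the peak at 246 kb was nearer to Mpp3, that at 423 kb lay inside Hdac5, and that at 460 kb was nearer to BC030867. The count equalled that of Fgfr2, at 2.70 times the even spread (exact binomial test, p = 0.0169, adjusted p = 0.197). When windows were sized by bases away from annotated exons and start sites, the even spread for Etv4 fell from 2.59 to 1.67. All 7 peaks were still counted against it, and the window passed (exact binomial test, adjusted p = 0.0375). The peak at 181 kb lay 0.205 kb from an annotated transcript start and touched an annotated exon. That at 308 kb lay 1.64 kb from another annotated transcript start. The bases around both midpoints were left out of the 1.67, so this pass sets 7 peaks against bases that do not hold them all.

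Etv5, which responds to FGF in the rostral cortex, had 3 peaks, at 1.16 times the even spread (exact binomial test, adjusted p = 1). Its start site lies at 22439691 on the minus strand of chromosome 16. Both peaks nearest to it lay in intron 5, at 9.14 and 10.6 kb, with midpoints 1.46 kb apart. They were the only peaks of the 39 to lie together inside the transcript of their gene. The remaining peak, 363 kb upstream, was nearer to Crygs, which encodes a lens crystallin.

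Across the 9 genes, 18 of the 39 peaks (46.2%) had the FGF gene as their nearest protein-coding start site, and 21 lay nearer another gene. By role this held for 11 of the 21 Etv peaks, 5 of the 12 receptor peaks and 2 of the 6 Sprouty peaks. Only 5 of the 39 lay in the transcript of their gene, 1 each in Fgfr1, Fgfr2 and Etv1 and 2 in Etv5, all in introns, and 12 lay in the gene or within 100 kb of its start site. The farthest peak counted at Fgfr2 lay 491 kb downstream, and the nearest not counted lay 568 kb upstream. At Etv1 the farthest counted lay 478 kb upstream and the nearest not counted 522 kb downstream.

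Gene by gene, a regulatory domain bounded by neighbouring genes gave the same single call as the window. For that gene, Etv1, the domain contains the whole window with its 11 peaks, so the calls are not independent. A domain here ran from 5 kb upstream to 1 kb downstream of the start site and was extended on either side until it met the next such interval, by at most 1 Mb. In this scheme 1 of the 9 genes passed the exact binomial test, beside 1.14% of all protein-coding genes. Etv1 had 15 peaks in a domain of 1.90 Mb, where 4.92 would fall under an even spread (3.05 times; exact binomial test, adjusted p = 0.0212). This call was lost when peaks under 5 kb apart were joined (13 peaks; exact binomial test, adjusted p = 0.0900) and when only the wider peaks were counted (7 peaks; exact binomial test, adjusted p = 0.703), although the counts were still 2.87 and 2.84 times the even spread.

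The other domains held few peaks. Fgfr2 had 5 in 0.926 Mb, Fgfr1 2 in 0.313 Mb, Etv5 2 in 0.385 Mb, and Fgfr3, Spry1 and Spry2 had 1 each. Etv4, with 7 peaks in its window, had none in its domain of 0.159 Mb, and Spry4 had none in 0.318 Mb. Fgfr1 is annotated under a pair of identifiers, the start site of the second of which ends its domain early. With 1 identifier per gene name it held 3 peaks in 0.390 Mb.

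**Figure D4:**
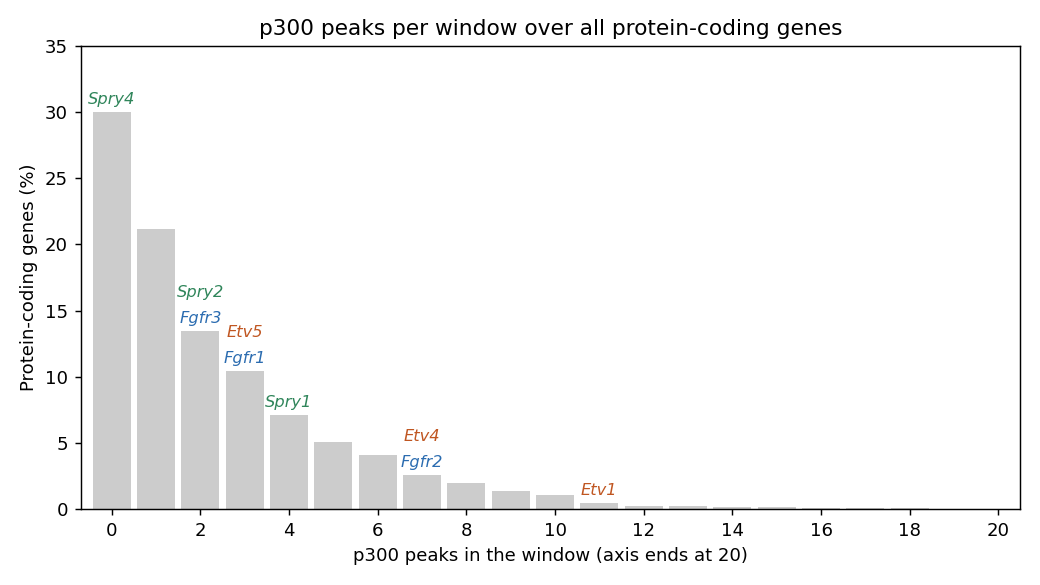
Share of all 22367 protein-coding genes (vertical axis, percent) with each number of p300 peaks in their window (horizontal axis, ending at 20), with the 9 genes written above their own counts. Spry4 stands with the 30.0% of genes that had none, and Etv1 lies in the tail at 11, a count reached or passed by 1.67% of genes.

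The 39 peaks were about as wide as the whole set. Their median width was 1022 bp (range 656 to 2062) against 1017 bp for all peaks. Of the 39, 22 (56.4%) lay over 50 kb from any protein-coding start site, against 63.7% of all peaks, and 12 (30.8%) lay inside a protein-coding transcript, against 39.7%. The median distance to the nearest such start site was 53.8 kb, against 82.6 kb for all peaks. The 39 were picked for lying in a protein-coding gene or within 500 kb of its start site. That rule limits their distances and not those of all peaks, so nothing is drawn from the contrast. Another peak midpoint lay within 50 kb for 48.7% of them and for 50.1% of all peaks. At least 4 others lay that close for 5 of them (12.8%, all in the group downstream of Etv1), against 5.48% of all peaks. An annotated exon was touched by 2 of them (5.13%), against 2.16% of all peaks.

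Median GC content differed more between the genes than between the 39 peaks and the whole set. Medians of 2 to 11 peaks spread more than those of large sets in any case, so nothing is drawn from that contrast. The median GC content was 47.5% for the 39 and 45.2% for all peaks. The Etv1 peaks were low in GC, with a median of 38.3% and a range of 33.1 to 44.1%, and the Spry2 peaks had a median of 39.9%. The peaks of Etv4, Fgfr1 and Fgfr3 had medians of 52.0, 55.0 and 62.1%, and those of Fgfr2, Spry1 and Etv5 had medians of 47.2, 47.8 and 49.95%. The Etv1 range did not reach the lowest value at Etv4, 47.5%, nor those at Fgfr1, Fgfr2 and Fgfr3, 53.3, 44.9 and 54.2%. It overlapped the values at Spry1 (from 41.1%), Spry2 (from 39.1%) and Etv5 (from 43.2%). Base composition bears on how often a motif rich in A and T occurs by itself, and its part in the motif shares below was not tested.

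Motifs were searched on both strands in the whole of each peak. ETS, the class of site bound by Etv1, Etv4 and Etv5 themselves, was CCGGAAGT or CAGGAAGT. At least 1 match lay in 6 of the 39 peaks (15.4%, with 5.86 to 30.5 as the Clopper-Pearson 95% interval). Of all peaks 7.98% held one, a value inside that interval. The matches fell at 5 of the 9 genes, with 2 peaks at Etv1, 1 each at Fgfr1, Fgfr2, Fgfr3 and Etv4, and none at Etv5 or the Sprouty genes. Each is shown in 30 bases of mm9, 5′ to 3′, with the match in capitals. A site on the minus strand appears as its reverse complement, ACTTCCTG or ACTTCCGG.
Fgfr1 intron 2, chr8:26654094-26654123, plus strand: agaacccagacCAGGAAGTgtatgacaggt
Fgfr2, downstream, chr7:137061529-137061558, plus strand: agcagaaaataACTTCCTGttttatactga
Fgfr3, far upstream, chr5:33884452-33884481, plus strand: aaatttctgggACTTCCTGaagatatttta
Etv1, upstream inside Dgkb, chr12:39113152-39113181, plus strand: tgttaaagtcaCAGGAAGTactggccactg
Etv1, downstream group, chr12:39775197-39775226, plus strand: tttcatgatgtCAGGAAGTgtcagatatta
Etv4, downstream, chr11:101558177-101558206, plus strand: tgggattatgcACTTCCGGactgctgggat
Of these 6, the match in Fgfr1 intron 2 lay 3 bp from the midpoint of its peak and that in the Etv1 downstream group 53 bp from its midpoint, while the other 4 lay between 373 and 765 bp away. A match is a run of letters and was not shown to be bound. When the search was kept to the middle 500 bp, 2 of the 39 peaks held one (5.13%), against 3.33% of all peaks.

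AP-1, the site of Fos and Jun proteins, which act downstream of Erk in many cells, was TGACTCA or TGAGTCA. It lay in 12 of the 39 peaks (30.8%, Clopper-Pearson interval 17.0 to 47.6), against 16.5% of all peaks, and in the middle 500 bp in 23.1% against 8.27%. At Etv1 it lay in 6 of 11 peaks (54.5%, interval 23.4 to 83.3), and at the other 8 genes in 6 of 28 (21.4%). The Etv1 matches are printed because that share was the highest of the 9 genes, a choice made after the values were seen and for which no test is given. They are set out along the chromosome, again in 30 bases of mm9.
Etv1, upstream inside Dgkb, chr12:39227727-39227756, plus strand: tggataccgttTGACTCAttctacacatgc
Etv1 intron 4, chr12:39515419-39515448, plus strand: ggcagaaagtaTGAGTCAtacatcttccgc
Etv1, downstream, first match, chr12:39655580-39655609, plus strand: tatgaagtgttTGAGTCAagccaccaaccc
Etv1, downstream, next match, chr12:39655758-39655787, plus strand: aacaggaagcaTGACTCAcgcctggaaccc
Etv1, downstream group, widest peak, chr12:39753063-39753092, plus strand: tcactattccgTGAGTCAactgagcaatca
Etv1, downstream group, next to last peak, chr12:39797636-39797665, plus strand: acaaatcaaacTGACTCAatataaaacaac
Etv1, downstream group, last peak, chr12:39800169-39800198, plus strand: atatgtttcaaTGAGTCAtcttaatagagc
Of these 7 matches, 3 belonged to the group of 5 peaks downstream, 1 to intron 4 and 1 to a peak inside Dgkb, and the peak at 149 kb held 2. TGACTCA and TGAGTCA are reverse complements, so every match reads as the motif on both strands.

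For the remaining motifs the share of all peaks lay inside the interval of the 39. The E-box of proneural factors such as Neurog2 and Neurod, CAGCTG or CATCTG, lay in 34 of 39 (87.2%, interval 72.6 to 95.7) against 88.6% of all peaks. The homeodomain motif of Lhx factors, TAATTA or TAATTG, lay in 24 of 39 (61.5%, interval 44.6 to 76.6) against 68.4%. It was found in 9 of 11 Etv1 peaks, in 2 of 7 Etv4 peaks, in both Fgfr3 peaks and in none of the 3 Fgfr1 peaks. Among the 12 peaks in the gene or within 100 kb, 4 held it (33.3%). The peak 179 kb upstream of Fgfr3 held 10 matches of the Lhx motif and the widest Etv1 peak held 8. They were 2062 and 1948 bp wide, against a median of 1022 bp for the 39, and matches per length were not compared.

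Tcf/Lef, the site of the factors that carry Wnt signals, was CTTTGAT and lay in 6 of 39 (15.4%, interval 5.86 to 30.5) against 17.6% of all peaks. The dimer site of nuclear factor I (Nfi), made of TTGGC and GCCAA with 5 bases between, lay in none of the 39, which allows a share of up to 9.03% (exact interval), and in 0.362% of all peaks. Of the 39 peaks, 38 held at least 1 of the 6 motifs, as did 97.9% of all peaks.

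**Figure D5:**
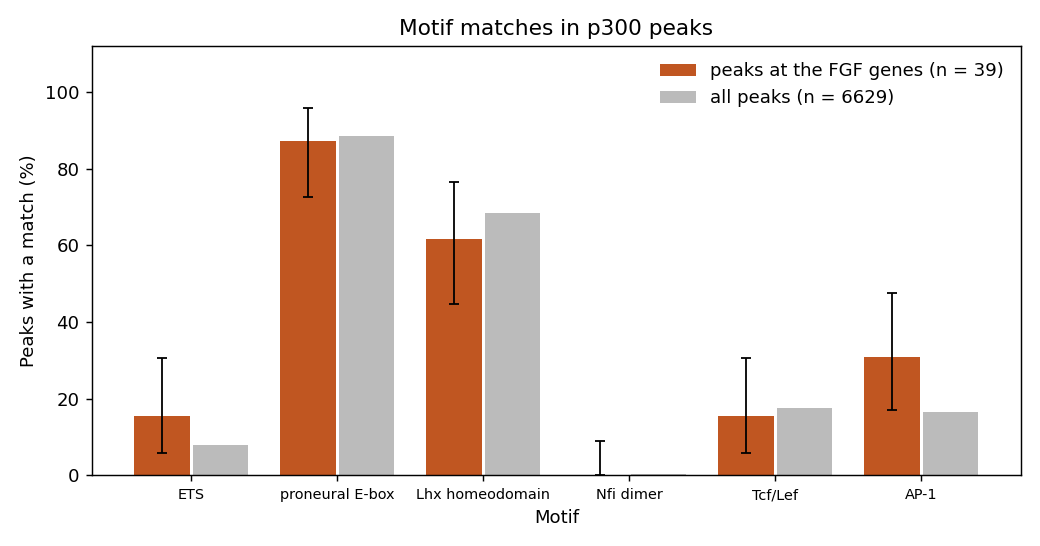
Share of peaks with at least 1 match (vertical axis, percent) for the 6 motifs, in the 39 peaks at the FGF genes (orange, with exact Clopper-Pearson 95% intervals) and in all 6629 peaks (grey). The intervals of ETS, E-box, Lhx, Nfi and Tcf/Lef take in the share of all peaks, and that of AP-1 begins at 17.0%, beside 16.5% for all peaks.

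Most other genes of the pathway did not pass either. Of 18 FGF ligands none passed the window test, beside 4.09% of all protein-coding genes, and the median was 2.5 peaks. Fgf6 and Fgf23, neighbours that share a window, had 8 each (exact binomial test, adjusted p = 0.0869), and 5 ligands had none, namely Fgf1, Fgf10, Fgf16, Fgf17 and Fgf22. Fgf8, the ligand of the rostral patterning centre, had 3 peaks. In their regulatory domains, 16 of the 18 ligands had no peak, against 78.7% of all protein-coding genes.

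Among 7 other receptors and co-receptors the median was 4 peaks and 1 passed, beside 4.09% of all protein-coding genes. This was Flrt1, a membrane protein that binds FGF receptors, with 9 peaks against 2.07 (exact binomial test, adjusted p = 0.0131), and all 9 lay in its domain of 0.148 Mb (exact binomial test, adjusted p = 3.79e-07). Only 5 of the 9 had Flrt1 as their nearest protein-coding start site, and the rest lay nearer another gene. Fgfr4 had 7 peaks and Fgfrl1, a receptor without a kinase domain, had none. Of 5 other feedback inhibitors found in the annotation none passed, with a median of 1 peak. Dusp6, a phosphatase of Erk, had 1, Il17rd (also called Sef) had none, and Spred1, Spred2 and Spred3 had 2, 1 and 3.

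The 17 adaptors and members of the Ras-Erk cascade had a median of 1 peak, and 1 of them passed. Frs3, an adaptor that docks on the receptors, had 10 peaks against 2.57 (exact binomial test, adjusted p = 0.0131), but none of the 10 had Frs3 as its nearest protein-coding start site and its domain held none. Shc1 and Map2k2 had 6 each. Over all protein-coding genes, 914 of 22367 (4.09%) passed the window test.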

How the data were processed

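The authors aligned reads to mm9 by ELAND, discarding those with several positions or over 2 mismatches, and called peaks against the input using MACS (1.4, per the submitters' processing notes). Their list leaves out promoters (2.5 kb around start sites of UCSC knownGene), exons and places where reads may map ambiguously, so it holds distal candidates. The deposited list gives chromosome, start, end and number for 6629 peaks, with no score or read count, so the depth behind a single peak is unknown.

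Positions and sequence were taken on NCBIM37, the assembly of mm9, with 37273 genes of GENCODE vM1. Peak midpoints were counted per gene, and counts were compared with the share of assembled bases by a one-sided exact binomial test, with Benjamini-Hochberg adjustment over 22367 protein-coding genes at 0.05. Intervals are exact (Poisson or Clopper-Pearson, 95%). The code was tested on simulated data and used Python 3.11.15, numpy 2.4.6, pandas 2.3.3, scipy 1.17.1 and matplotlib 3.10.9.

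The 9 genes, the pathway lists, the motifs and the tests were chosen with earlier results of these data known. All 9 genes were named, and other pathway genes where they passed the window test or had the most or no peaks, together with Fgf8, Fgfr4, Dusp6, the Spred genes, Shc1 and Map2k2, which were added after their values were seen. Spry3 was on a list and was not found among the annotated genes used here. Alternatives changed the distance, the peaks counted, the start sites, the genes tested, the expectation, the domains and the bases searched. The curated domains of GREAT and the input library were not used here.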

Additional observations from a re-analysis of the deposited data

How the results depend on the processing

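The count of 1 FGF gene past the window test became 0 within 100 kb, 0 within 250 kb and 0 with peaks narrower than the median left out. In these settings 0.872, 2.07 and 2.05% of all protein-coding genes passed, against 4.09% in the main one. The count became 2 with the whole annotated extent of each gene, which added Fgfr2 (4.09% of all protein-coding genes passed). It also became 2 with the expectation from bases away from exons and start sites, which added Etv4 (5.12% of all passed). That last setting left bases out of the expectation but still counted the peaks lying in them. Etv1 passed in 10 of 13 alternatives, with adjusted p from 0.00312 to 1 (exact binomial test). Many of the 10 left its 11 peaks and its even spread of 2.59 unchanged, so for Etv1 they repeat the main result. These were the window without the gene body, any base or the whole peak in the window, and the most 5′ start site. The whole gene extent and all annotated genes tested were also among them. The 39 peaks became 12 within 100 kb, 20 within 250 kb, 20 with the wide peaks and 18 with only peaks nearest to the gene, fewer by construction. The 1 call in regulatory domains became 0 with wide peaks (Etv1, exact binomial test, adjusted p = 0.703) and 0 with peaks under 5 kb apart joined. There 0.689 and 0.711% of all protein-coding genes passed, against 1.14% in the main setting. In the middle 500 bp the share of peaks with a match was 5.13% for ETS (3.33% of all peaks) and 69.2% for the E-box (74.1% of all peaks). In peaks within 100 kb or the gene body the share for Lhx was 33.3% (61.5% in the 39 and 68.4% in all peaks). The other 35 values of these summaries stayed within the limits set for them, which were wide for counts. Among these, the 39 peaks became 57 within 1 Mb and 56 with the whole annotated extent of each gene, more by construction. A motif share was held to be unchanged when it stayed inside the Clopper-Pearson interval of the 39 peaks. The alternatives on the whole gene extent, the nearest peaks and 1 identifier per gene name were added after the data were seen. No paired analysis was possible because there is 1 library of each kind. With no score in the peak list, a stricter list could be made only from peak width.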
